A study of Mus musculus with 20 samples.

Results

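Small nucleolar RNAs (snoRNAs) were taken from the deposited expression table of mouse brain when they had a mean of at least 1 FPKM (sequenced fragments scaled to transcript length and to the mapped fragments of a library) and a value above 0 FPKM in all 20 libraries. The deposited FPKM values themselves selected the members, 61 of 1508 rows annotated as snoRNA and of 45700 genes in all. The brains came from “Taiwanese” SMA mice, which lack Smn and carry the human SMN2 transgene (Smn-/-; SMN2tg/0), and from littermate controls that keep 1 Smn allele beside the same transgene (Smn-/+; SMN2tg/0), all on a congenic FVB background. Mice were taken on postnatal day 5 (early-symptomatic, 2 replicate numbers per genotype) and day 7 (late-symptomatic, 3 per genotype), with no treatment. A replicate number is called a mouse below, although the labels do not say that it marks 1 mouse. Each group gave libraries of total RNA, pooled from all fractions of a sucrose gradient of cytoplasmic lysate, and of polysomal RNA, pooled from the polysomal fractions only. Whole brain was used, so fewer cells of a type and less RNA per cell cannot be told apart. The neuronal genes Stmn2, Snap25 and Map2 averaged 1176, 301 and 384 FPKM over the 20 libraries, the astrocyte gene Gfap 60.6 FPKM and the liver gene Alb 0.0305 FPKM, so the libraries carry the markers of the labelled tissue. Smn1 was not lower in SMA libraries (log2 changes of 0.08 and -0.04 in early total and polysomal RNA, -0.09 and 0.11 late), and its FPKM covers the whole gene, so it does not check the genotype labels.

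snoRNAs are short noncoding RNAs that guide the chemical modification of other RNAs, above all ribosomal RNA, in the nucleolus. Box C/D snoRNAs (most Snord genes) carry a C box near the 5′ end and a D box near the 3′ end, bind fibrillarin, and guide 2′-O-methylation. Box H/ACA snoRNAs (Snora genes) end shortly after an ACA triplet, bind dyskerin, and guide pseudouridylation. A few, such as U3 (box C/D), U17 (Snora73a and Snora73b, box H/ACA) and U22 (Snord22, box C/D), are needed for cutting the ribosomal RNA precursor. Most mammalian snoRNAs are released from introns of host genes. SMN, the protein reduced in SMA, assembles the small RNPs of the spliceosome and binds fibrillarin and GAR1, proteins of the snoRNA particles. Mature snoRNAs act in the nucleolus, whereas the lysate was cytoplasmic.

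The sequences that the results turn on are shown 5′ to 3′ on the strand of the gene (Gencode M21 transcripts, GRCm38), with the C and D boxes or the final ACA in capitals. Snord22 at chr19:8725866-8725991 (+) was the most abundant member. Snora73b at chr4:132352322-132352526 (-), its relative Gm26448 at chr9:120129351-120129553 (+), U3 at chr10:40258467-40258679 (+) and Snord17 at chr2:144265979-144266216 (-) were among the members with the lowest polysomal relative to total RNA, and Gm26397 at chr8:126944847-126944980 (-) was nearly equal in both fractions late. Snord15b at chr7:99479563-99479707 (-) differed from its host gene between the days. U3 met neither of the letter rules below and has no capitals.
Snord22: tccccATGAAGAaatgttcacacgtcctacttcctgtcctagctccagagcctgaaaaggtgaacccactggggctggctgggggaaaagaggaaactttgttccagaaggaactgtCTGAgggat
Snora73b: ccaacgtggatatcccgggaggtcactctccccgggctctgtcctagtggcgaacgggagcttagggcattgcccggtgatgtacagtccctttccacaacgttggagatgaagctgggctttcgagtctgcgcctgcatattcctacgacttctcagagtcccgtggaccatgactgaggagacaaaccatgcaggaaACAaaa
Gm26448: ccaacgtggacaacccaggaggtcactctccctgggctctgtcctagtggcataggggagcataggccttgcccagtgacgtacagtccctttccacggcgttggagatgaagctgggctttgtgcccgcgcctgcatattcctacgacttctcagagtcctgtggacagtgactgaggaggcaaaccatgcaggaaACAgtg
U3: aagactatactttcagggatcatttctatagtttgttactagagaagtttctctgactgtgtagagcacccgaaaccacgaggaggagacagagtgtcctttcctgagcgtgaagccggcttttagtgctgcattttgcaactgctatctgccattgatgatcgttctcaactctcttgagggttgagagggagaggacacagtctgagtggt
Snord17: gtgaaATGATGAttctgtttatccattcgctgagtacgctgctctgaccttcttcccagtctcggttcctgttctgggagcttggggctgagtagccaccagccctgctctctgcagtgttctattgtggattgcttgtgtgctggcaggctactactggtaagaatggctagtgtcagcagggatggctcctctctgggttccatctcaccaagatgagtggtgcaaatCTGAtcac
Gm26397: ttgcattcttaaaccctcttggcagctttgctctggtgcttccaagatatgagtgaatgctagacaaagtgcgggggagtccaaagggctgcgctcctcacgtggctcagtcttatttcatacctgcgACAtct
Snord15b: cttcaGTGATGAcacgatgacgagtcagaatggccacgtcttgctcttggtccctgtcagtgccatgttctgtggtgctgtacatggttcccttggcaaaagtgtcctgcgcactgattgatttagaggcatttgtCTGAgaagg

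By symbol, the members were 17 Snora, 4 Snord (Snord22, Snord15a, Snord15b and Snord17) and 40 with other symbols, mostly numbered Gm genes. Letters of the transcripts gave a second grouping. A C box (ATGANGA or GTGANGA in the first 20 nt) with a D box (CTGA in the last 20 nt) was found in 7 members, all 4 Snord among them. An ACA ending 3 nt before the 3′ end, without these boxes, was found in 39 members, 14 Snora among them, and 15 members met neither rule. The given strand alone was searched, and a match is a description of letters only. Among the 1558 snoRNA and scaRNA transcripts of the annotation, 20.2% met the C/D rule and 19.1% the H/ACA rule, against 11.5% and 63.9% of the members. Length differed too. Members were 121 to 325 nt long (median 137), while the 82 Snord rows of the whole table had a median length of 79.5 nt and the 39 Snora rows 132 nt. Of the 223 snoRNA rows with a mean of at least 1 FPKM but 0 FPKM somewhere, 88.8% were 120 nt or longer, and of the rows with a lower mean 54.0%.

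The requirement of a value above 0 FPKM everywhere, not the mean, set the border of the group. The lowest means among the members were 50.7 FPKM (Gm24698), 52.8 FPKM (Gm24044) and 59.4 FPKM (Gm24029). Just outside, with 0 FPKM in 1 library each, stood Rnu3a with a mean of 219 FPKM, Snora17 with 170 FPKM and Gm24233 with 158 FPKM. At the border of the mean stood Gm23323 (0.991 FPKM), Gm24787 (0.975 FPKM) and Gm26278 (0.946 FPKM), each above 0 in 1 library only. An exact 0 in this table can be a failed estimate. Rn7sk, an abundant nuclear RNA, was listed at 0 in all 10 total libraries, and the neuronal gene Tubb3 was listed at 0 in both early control polysomal libraries. Counts were not used here, so the number of reads behind a value was not examined. A snoRNA listed at 0 in a whole group was not eligible as a member.

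In the annotation, 58 of the 61 members lay inside a gene of another type on the same strand, 45 of them in a protein-coding gene, and 46 host genes were involved. By position, 29 members were intronic in every host transcript, 29 overlapped an exon of at least 1 host transcript, and 3 had no host (U3, Gm24853 and the row named Snhg7, which lies at the same place as the row Snora43). The deposited locus of 56 members was over 10 nt wider than the snoRNA, so host and snoRNA were quantified within a shared locus. Eif4a2 hosted Gm26447, Snora81 and Gm24616, and Eif4a1 hosted Gm22988, Gm25835 and Gm24029, both genes coding for the eIF4A helicase of translation initiation. Rps3, a ribosomal protein gene, hosted Snord15a and Snord15b. Snhg3, a noncoding host, held Snora73a and Snora73b. Several members are near copies between which reads can be split, such as Gm22988 and Gm25291 (97.2% identical), Gm25788 and Gm22154 (96.9%), and Snora73a and Snora73b (96.6%). Gm26448 was 88.8% identical to Snora73a. The row U3 (ENSMUSG00000106147.1) shares its locus with the row Rnu3a (ENSMUSG00000065870.2), so U3 results are also given for the sum of both rows.

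Snord22 had the highest level of the members in all 20 libraries, with a mean of 15970 FPKM (2345 to 33795). It was followed by Gm26447 (9370 FPKM), Gm22988 (8699 FPKM), Gm23262 (7563 FPKM) and Gm22486 (4234 FPKM, named Snord94 in RefSeq). The member median stood between the 93.3rd and the 99.0th percentile of the tested genes in every library, which describes the FPKM values that chose them. FPKM of transcripts this close to the 100 nt read length depend strongly on the length correction, so levels are not compared between members further. The members together took 14.27%, 14.06% and 13.99% of the summed FPKM of the late control total libraries and 15.4%, 16.4% and 9.58% of the SMA ones. In early total RNA their share was 6.46% and 4.72% for control, 9.88% and 3.97% for SMA brains. In early polysomal RNA it was 2.23% and 5.69% for control, 4.18% and 2.81% for SMA brains. In late polysomal RNA it was 11.4%, 14.1% and 13.8% for control, 13.4%, 10.5% and 9.82% for SMA brains, a range that overlaps that of late total RNA. The highest shares were late and the lowest early, in either fraction.

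Libraries of a group differed more in these RNAs than in other genes. The median SD of log2 values between replicates was between 0.27 (late control total) and 1.14 (early SMA total) over the members, against 0.08 to 0.16 over the 14335 tested genes above 0 FPKM everywhere. The member median was 433 and 168 FPKM in the early SMA total libraries, and 344 and 198 FPKM in the early control ones. In early polysomal RNA it was 103 and 213 FPKM for control, 153 and 96.0 FPKM for SMA brains. Late total libraries had medians of 607, 555 and 498 FPKM for control, 583, 640 and 336 FPKM for SMA brains. The third late SMA total library was thus low, although U3 (3136 FPKM) and Snord17 (547 FPKM) had their highest late total values there. Late polysomal medians were 370, 302 and 361 FPKM for control, 401, 302 and 303 FPKM for SMA brains.

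**Figure D1:**
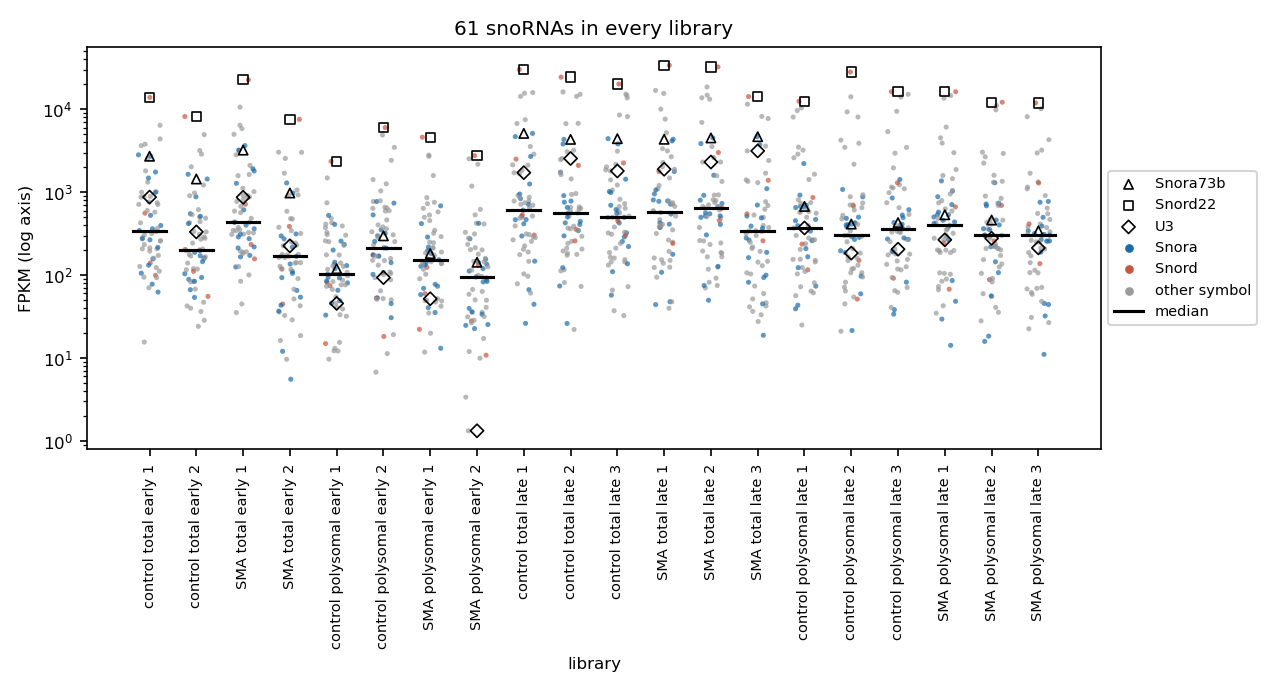
FPKM (log axis) of the 61 snoRNAs in each of the 20 libraries, coloured by symbol, with the median as a bar and Snora73b, Snord22 and U3 outlined. Most day 7 medians lie above the day 5 medians, the third late SMA total library has a median of 336 FPKM, and Snora73b falls from the top of the total libraries toward the median in the polysomal ones.

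The first comparison asked how the snoRNAs stood in polysomal against total RNA. At the early stage no member was higher in polysomal RNA (9.29% of the 15247 tested genes were) and 12 were lower (10.2% of tested genes). Late again none was higher (19.5% of tested genes) and 20 were lower (12.5%). The fits were made with limma at an adjusted p under 0.05, with genotype as covariate. At an unadjusted p under 0.05 no member was higher at either stage (20.0% and 26.4% of tested genes were), and 22 and 25 were lower (18.5% and 15.8%). With both directions counted, 19.7% of members and 19.5% of tested genes were called early, 32.8% and 32.01% late, and all calls of members were lower ones. With a block for the replicate number the early number was 7 (11.5% of members, 7.75% of all genes). It was 1 and 0 without the first or second control (1.44% and 0.525% of all genes), and 3 and 8 without the first or second SMA mouse (3.55% and 12.8%), so calls fell over all genes as well. The median log2 difference over the members was -1.07 early and -0.51 late, against 0.02 and 0.05 over all tested genes. Not every pair of libraries with the same number showed it. The second early control pair had a member median of 0.12, with 28 of 61 members lower in polysomal RNA, and the third late SMA pair one of -0.03, with 33 lower, while the other 8 pairs ran from -1.86 to -0.34. Quantile normalization, which gives all libraries 1 distribution, split the late calls into 5 higher (Snord22, Gm26447, Gm26397, Gm22988 and Snora26) and 13 lower. With that scaling the late member median was -0.23.

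Snora73b and Snora73a, both U17, had the lowest late polysomal values relative to total RNA. Snora73b reached 2706 and 1440 FPKM in early control and 3208 and 976 FPKM in early SMA total libraries. In the matching polysomal groups control libraries gave 119 and 297 FPKM, SMA libraries 182 and 143 FPKM. In the 6 late total libraries its lowest, median and highest values were 4322, 4451 and 5102 FPKM, and in the 6 late polysomal libraries 342, 445 and 672 FPKM. The fractions did not overlap at either stage. The log2 difference was -3.42 (SE 0.475, adjusted p = 0.0101) early and -3.29 (SE 0.142, adjusted p = 1.7e-07) late. For Snora73a it was -3.20 (SE 0.394, adjusted p = 0.00712) and -3.24 (SE 0.143, adjusted p = 1.92e-07). Both were lower in the polysomal library in all 10 pairs of libraries with the same number.

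U3, the snoRNA of the small-subunit processome, had 1716, 2543 and 1797 FPKM in late control total libraries and 370, 184 and 205 FPKM in the polysomal ones. In late SMA brains it had 1886, 2305 and 3136 FPKM in total and 266, 278 and 212 FPKM in polysomal RNA. The fractions did not overlap, and the late log2 difference was -3.15 (SE 0.197, adjusted p = 2.01e-06). At the early stage the row alone gave -4.36 and was not called (adjusted p = 0.0572), since 1 SMA polysomal library had 1.33 FPKM in the row U3 and 68.9 FPKM in the row Rnu3a. The sum of both rows gave -3.43 (SE 0.591, adjusted p = 0.017) early and -3.11 (SE 0.189, adjusted p = 1.59e-06) late.

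Snord17, a box C/D guide, had lowest, median and highest values of 241, 302 and 547 FPKM in late total and 51.4, 89.9 and 137 FPKM in late polysomal libraries. Its log2 difference was -2.29 (SE 0.452, adjusted p = 0.0233) early and -1.94 (SE 0.263, adjusted p = 4.22e-04) late, with no overlap at either stage. Gm26448, the U17 relative in Rpsa, gave -2.08 and -1.90, and Gm23547, in Phb2, gave -1.89 and -1.82, all 4 values past the test. The row named Snhg7 gave -2.58 early and -1.18 late, both past the test. Members with late differences near 0 included Gm26397 (0.22, SE 0.176), Snora26 (0.07, SE 0.159) and Snora44 (0.08, SE 0.418). Over the 61 members, early and late differences went together (Pearson's r = 0.74, Spearman's rho = 0.52), a description over members that share hosts and near copies. Longer members had lower polysomal values relative to total RNA late (r = -0.49, rho = -0.51) and less so early (r = -0.31, rho = -0.35), likewise a description over 61 members.

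**Figure D2:**
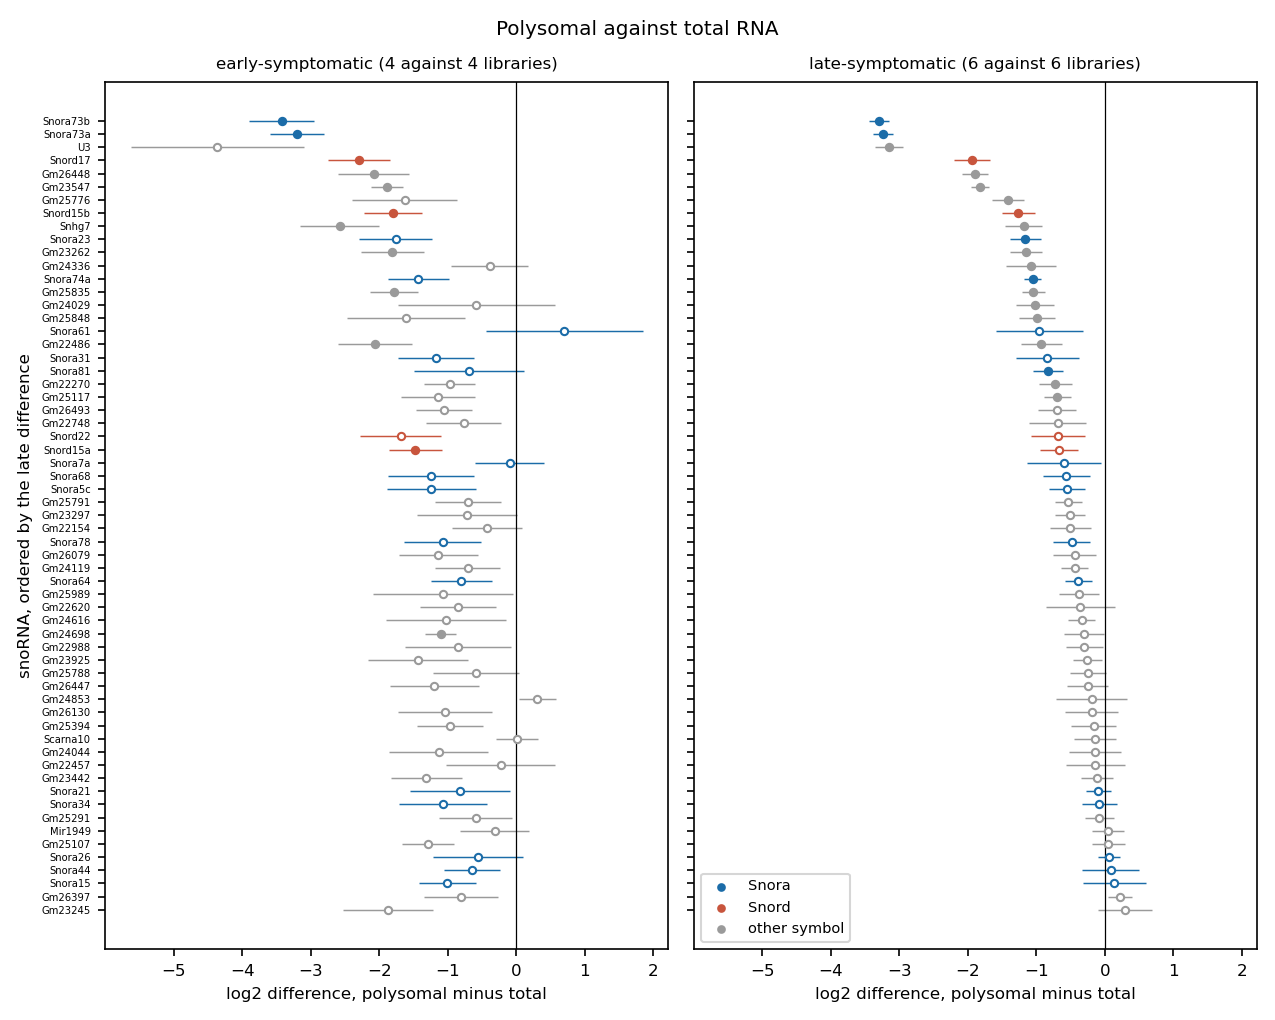
Log2 difference of polysomal minus total RNA for each of the 61 snoRNAs with its standard error, early (left) and late (right), ordered by the late value and coloured by symbol; filled points passed an adjusted p under 0.05. Snora73b, Snora73a and U3 lie near -3 late, and the filled points are all below 0.

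Snora and Snord symbols were then set side by side. The shares of all tested genes called lower, 10.2% early and 12.5% late, stand beside the counts here. The 17 Snora members had a median log2 difference of -1.07 early (2 called lower) and -0.56 late (5 called lower). The 4 Snord members had -1.74 early (3 called lower) and -0.97 late (2 called lower). Among pairs of libraries with the same number, the Snord median lay below the Snora median in 10 of 10. With 4 Snord members, 2 of them from Rps3, this is a description and was not tested. Grouped by letters, the 7 box C/D members had -1.79 early and -0.93 late (5 and 4 called lower) and the 39 box H/ACA members -1.05 and -0.50 (5 and 10 called lower). The early Snora and box H/ACA counts are near that background. In percentile rank among the tested genes, which does not use the size of FPKM, the Snora median was 98.7 ± 0.0365 (SD, n = 3) in late control total and 98.6 ± 0.0942 (SD, n = 3) in late control polysomal libraries. The Snord median was 99.1 ± 0.147 and 98.4 ± 0.719 (SD, n = 3 each). In the early control libraries the Snord median rank was 97.3 and 95.9 in total and 90.8 and 91.8 in polysomal RNA, while the Snora one was 98.2 and 96.7 against 93.3 and 97.2. Early Snord ranks did not overlap between the fractions in control brains, and Snora ranks did. On the rank scale the order of the classes held early but not late. The Snord median difference in percentile points lay below the Snora one at 4 of 4 early numbers and at 3 of 6 late ones, and over the late libraries it was -0.498 for Snord and -0.735 for Snora members.

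**Figure D3:**
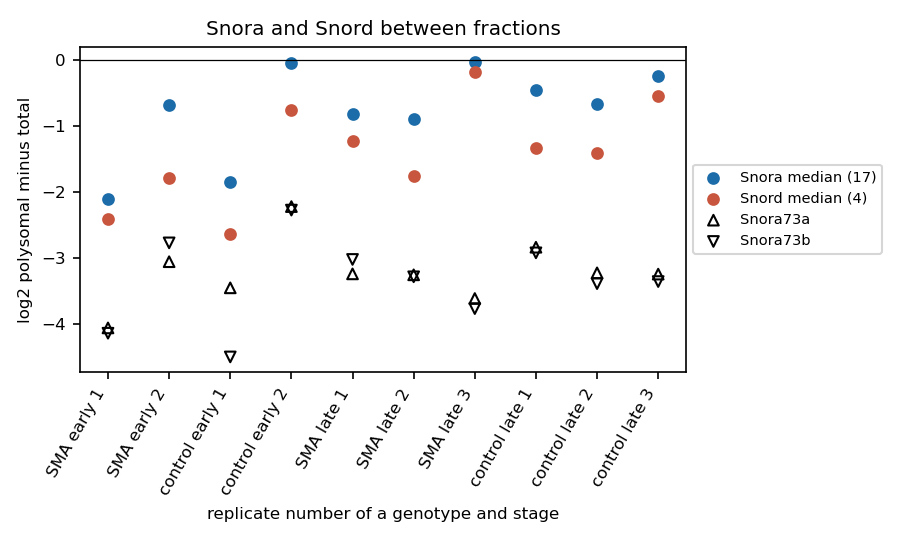
Log2 difference of polysomal minus total RNA by replicate number of a genotype and stage, as the median of 17 Snora and of 4 Snord members, with Snora73a and Snora73b as single values. On this scale the Snord median is below the Snora median at all 10 numbers (on the rank scale at 3 of the 6 late ones), and both U17 snoRNAs lie below either median throughout.

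Other noncoding RNAs gave the background for these differences. The 47 spliceosomal, scaRNA, ribozyme and miscellaneous short RNA rows above 0 FPKM everywhere had median log2 differences of -1.93 early and -1.64 late, and the 117 protein-coding genes with transcripts of at most 600 nt had 0.27 and 0.09. Rpph1, the RNA of RNase P, gave -4.67 and -4.76, and Rmrp, the RNA of RNase MRP, -3.76 and -4.03, all past the test. Of all tested genes 10.2% were lower and 9.29% higher early, 12.5% and 19.5% late. Of the listed other short noncoding RNAs, 4 of 7 tested were lower early and 5 late, and Rn7sk, listed at 0 in total RNA, was called higher both times. Of the nuclear long noncoding RNAs, 4 of 5 tested were lower early and 3 late, Malat1 with -2.08 and -2.41. The list of noncoding snoRNA host genes also holds the protein-coding Snrpn and Snurf, which lie in an imprinted snoRNA locus. Of this list, 12 of 15 tested were lower at either stage, Gas5 with -2.23 and -2.16. Late, 2 were higher, Snrpn (0.13) and Snurf (0.33). The list of snoRNAs for ribosomal RNA processing had 7 tested rows, 4 of them members, of which U17 made up both early calls, and U17 with U3 the 3 late ones. Snord22, the U22 of that list, gave -1.69 early and -0.68 late and was not called (adjusted p = 0.0902 and 0.224). None of the 4 rows from imprinted snoRNA clusters reached the mean of 1 FPKM.

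Day 7 was compared with day 5 within each fraction. In total RNA 28 members rose (19.3% of all tested genes did) and 1 fell (21.1%). In polysomal RNA 44 rose (23.4% of tested genes) and 2 fell (23.8%). The median log2 difference was 1.03 in total and 1.60 in polysomal RNA, against -0.04 over all tested genes in either fraction. With 1 mouse left out, the total median ran from 0.61 (without the second early SMA mouse) to 1.42 (without the first). The polysomal median ran from 1.26 to 1.82. On within-library percentile ranks the numbers fell to 17 in total and 27 in polysomal RNA, or 27.9% and 44.3% of the members against 38.3% and 47.0% of all genes in those fits. All libraries of a day belong to 1 stage, so age and any batch of library making cannot be told apart. The 47 other short noncoding rows had medians of 0.04 in total and 0.20 in polysomal RNA, and the 117 short protein-coding genes 0.28 and 0.08. The median over the members was 1.20 in control and 0.93 in SMA total RNA, and 1.15 and 1.63 in polysomal RNA. Of the Snora members 7 of 17 rose in total and 12 in polysomal RNA (median log2 differences of 0.89 and 1.37), and of the Snord members 3 of 4 and 4 of 4 (1.81 and 2.39).

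The largest rise in total RNA was that of Snora81, an H/ACA symbol within Eif4a2. It had 77.7 and 53.8 FPKM in early control and 125 and 12.1 FPKM in early SMA total libraries, against lowest, median and highest values of 426, 477 and 805 FPKM in the 6 late ones. The days did not overlap, and the log2 difference was 3.43 (SE 0.594, adjusted p = 0.00277). In polysomal RNA it was 3.29 (SE 0.462, adjusted p = 0.001). Gm24616, in the same host, had 112 and 42.5 FPKM in early control and 84.2 and 51.6 FPKM in early SMA total libraries, and 317, 444 and 640 FPKM (lowest, median, highest) late. It rose by 2.75 (SE 0.314, adjusted p = 4.08e-04) in total and by 3.44 (SE 0.673, adjusted p = 0.00423) in polysomal RNA, without overlap. Gm24119, in Slc25a3, rose by 2.48 and 2.75. U3 rose by 2.16 in total and by 3.37 in polysomal RNA, and the sum of U3 and Rnu3a by 1.51 (adjusted p = 0.0218) and 1.83 (adjusted p = 0.00258). The U17 pair rose less, Snora73b by 1.28 and 1.41 and Snora73a by 0.89 and 0.85, each past the test.

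Few members went the other way. Gm23925, in the noncoding host Snhg17, fell by 1.20 on the log2 scale in total RNA (adjusted p = 0.0390). Snora7a, in the ribosomal protein gene Rpl32, had early polysomal values of 200 and 211 FPKM for control, 153 and 95.0 FPKM for SMA brains. Its late polysomal values were 73.6, 97.1 and 38.3 FPKM for control, 48.3, 15.9 and 45.6 FPKM for SMA brains. Early values were mostly higher, with an overlap of 1 library, and Snora7a fell by 1.77 on the log2 scale (SE 0.379, adjusted p = 0.00628). Scarna10, a guide RNA of the Cajal body that the table types as snoRNA, gave -0.96 in polysomal RNA (adjusted p = 0.00105).

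Host genes were compared with their snoRNAs between the days. For the 53 members whose host was tested (42 hosts), the median log2 difference between the days was 1.11 in total and 1.64 in polysomal RNA, against -0.11 in either fraction for the hosts. The snoRNA lay above its host in 43 of 53 cases in total and in 46 of 53 in polysomal RNA. Eif4a2 itself gave -0.03 in total and -0.25 in polysomal RNA, neither past the test, while its snoRNA Gm26447 rose by 1.81 and 2.76, and Snora81 and Gm24616 by the values above. Snord15b rose by 2.32 and 2.86 while its host Rps3 gave -0.52 (adjusted p = 0.00786) and -0.71 (adjusted p = 0.0122). Across the 53 pairs, the differences of host and snoRNA were weakly related in total RNA (r = 0.24, rho = 0.25) and hardly in polysomal RNA (r = 0.05, rho = 0.05), as a description over members that share hosts.

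**Figure D4:**
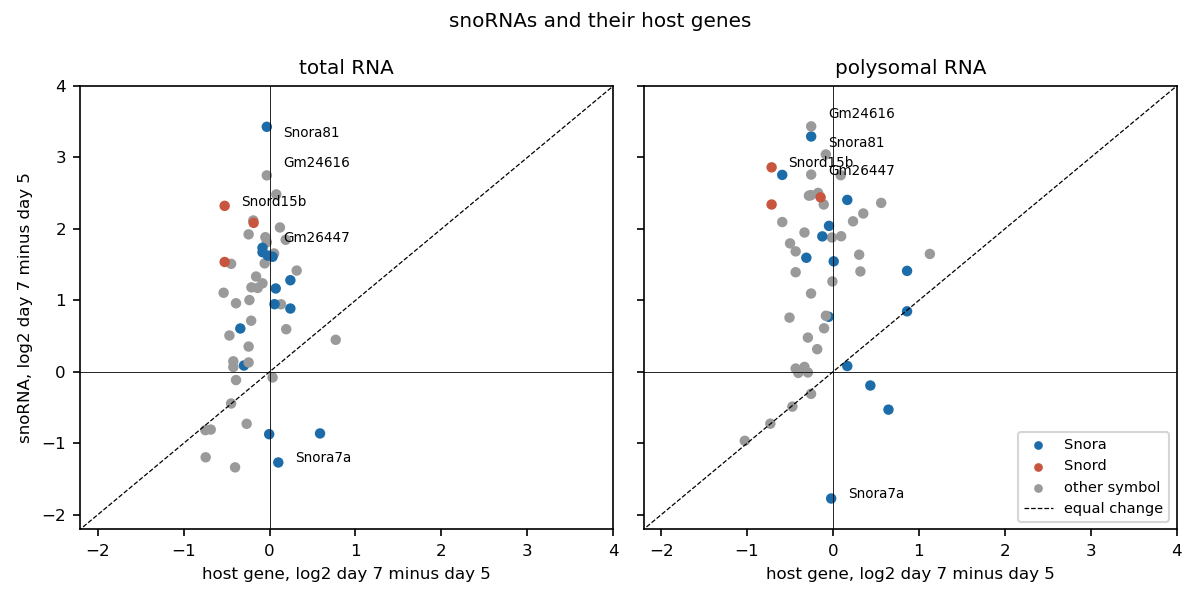
Log2 difference of day 7 minus day 5 of each snoRNA (vertical) against that of its host gene (horizontal), in total and polysomal RNA, for the 53 members with a tested host; the dashed line marks equal change. Hosts lie near 0 while most snoRNAs lie above the line, 43 of 53 in total and 46 of 53 in polysomal RNA.

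Between genotypes few members passed an unadjusted p under 0.05, the threshold taken for this comparison. In early total RNA none was higher (4.36% of tested genes) and none lower (3.89%). In early polysomal RNA none was higher (5.65%) and 3 were lower in SMA (6.82%), namely Gm26130, Snora64 and Gm26493. In late total RNA 1 was higher, Snora81 (4.84% of tested genes were higher), and none lower (4.70%). In late polysomal RNA none was higher (5.35%) and 6 were lower (5.38%). With both directions counted, the share of members called lay under that of tested genes in all 4 comparisons, the 6 late polysomal calls being 9.84% of the members against 10.7% of tested genes. Of the 47 other short noncoding rows, 9 were lower in that same comparison. With limma and Benjamini-Hochberg adjustment over all tested genes no member passed in any of the 4 comparisons, the smallest adjusted p being 0.551, 0.203, 0.482 and 0.161. The median log2 changes over the members were -0.02 and -0.23 in early total and polysomal RNA and -0.23 and -0.13 late, against medians of all tested genes between -0.01 and 0.01. The sign of the first 3 medians rested on single mice. Without 1 mouse at a time the early total median ran from -0.82 (without the first SMA mouse) to 0.84 (without the second), and the early polysomal one from -0.84 (without the first control) to 0.11 (without the second SMA mouse). The late total median was 0.06 without the third SMA mouse, whose total library had the low median, and the late polysomal one stayed between -0.28 and -0.06. The counts moved as well. Leaving out an early mouse leaves 1 library in its group, which is then assumed to vary like the other group, so these early counts show dependence on single libraries and no more. The early total number was 0 to 5, where the 5 were 8.20% of the members beside 8.39% and 28.3% of all tested genes in the same fits. The late total number was 1 to 8, where the 8 were 13.1% of the members beside 8.59% of all genes. The early polysomal number was 15 and 18 without the first or second control (24.6% and 29.5% of the members, 8.25% and 19.8% of all genes), and 12 and 2 without the first or second SMA mouse (19.7% and 3.28% of the members, 7.76% and 5.19% of all genes). The direction of these early polysomal calls also changed with the mouse left out, and shares of all genes by direction are not given for those fits. Tests over 2 against 2 mice are limited, since an exact permutation test of such a design cannot go below p = 0.333, and with 3 against 3 not below 0.1.

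Snora64, in the ribosomal protein gene Rps2, had early polysomal values of 143 and 141 FPKM for control, 73.4 and 83.8 FPKM for SMA brains, without overlap (log2 change -0.86, SE 0.0940, adjusted p = 0.203 by limma). Gm26130, in Tcp1, had 229 and 381 FPKM against 145 and 96.0 FPKM (log2 change -1.32). Gm26493, in Cnot1, had 303 and 253 FPKM against 190 and 201 FPKM (log2 change -0.50). Late values of these 3 members overlapped between the genotypes in polysomal RNA. In late total RNA Snora81 had 465, 444 and 426 FPKM against 805, 730 and 489 FPKM in SMA (log2 change 0.57, SE 0.200, adjusted p = 0.482 by limma). It was not called in late polysomal RNA, nor early, where its values went the other way. The early polysomal values were 103 and 30.7 FPKM for control against 13.1 and 22.6 FPKM for SMA (log2 change -1.70), and the early log2 change in total RNA was -0.73.

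In late polysomal RNA Gm25791, in Taf1d, had the smallest p of the 6 members that were lower in SMA. Control libraries gave 622, 525 and 649 FPKM, SMA libraries 349, 362 and 384 FPKM (log2 change -0.71, adjusted p = 0.161 by limma). Gm24698, in Champ1, had 72.2, 64.3 and 118 FPKM against 42.7, 28.1 and 48.3 FPKM (-1.08). Gm25776, in Gtf2a1, had 2598, 3468 and 2950 FPKM against 1871, 1597 and 1329 FPKM (-0.91). Its relative Gm25848, 89.6% identical, gave -0.90, Scarna10 -0.74 and Gm24336 -0.60. In all, 8 members had SMA values wholly below the control values, these 6 among them, and none lay wholly above, against 8.24% and 7.86% of all tested genes. No Snora and no Snord symbol was among them, and the Snora median was -0.17 and the Snord median 0.03. The classes lay further apart early, in polysomal RNA with -0.71 for Snora (15 of 17 below 0) and -0.08 for Snord members. In early total RNA they had -0.23 and 0.36, and in late total RNA -0.26 and -0.06. The early total values rest on libraries that lay far apart. Snord medians there were 349 and 157 FPKM for control, 474 and 252 FPKM for SMA brains. Snora medians were 344 and 171 FPKM against 361 and 111 FPKM, so both classes overlapped between the genotypes. In early polysomal RNA 14 members, 8 of them Snora, lay wholly below control and none wholly above, against 26.6% and 23.9% of tested genes. These class differences were not tested.

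**Figure D5:**
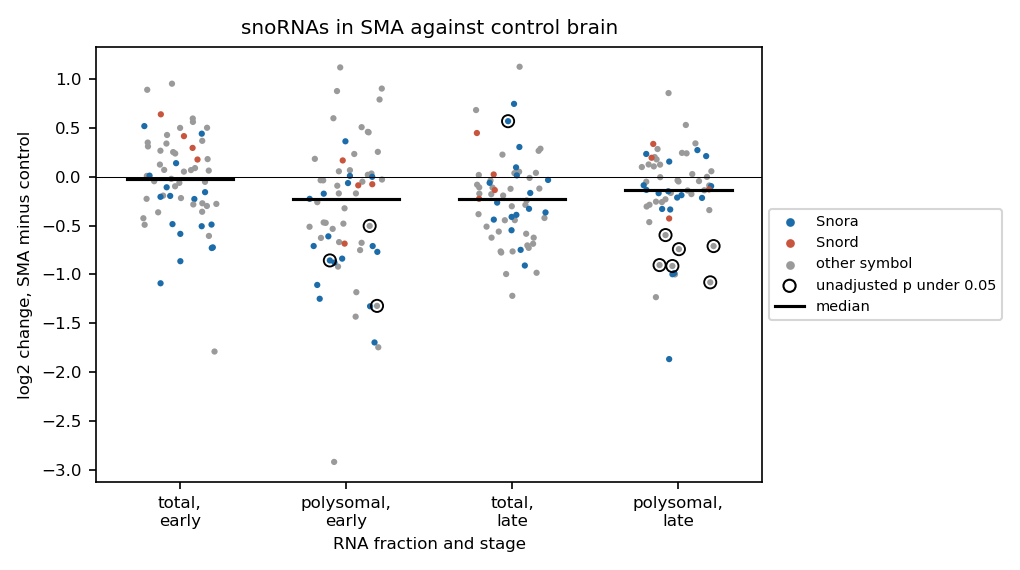
Log2 change of SMA minus control for each of the 61 snoRNAs in total and polysomal RNA of both stages, with the median as a bar and members with an unadjusted p under 0.05 circled. The bars stand at -0.02, -0.23, -0.23 and -0.13, of which only the last kept its sign whichever mouse was left out, and 3 members early and 6 late are circled below 0 in polysomal RNA.

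scaRNAs, guides that stay in the Cajal body, a nuclear compartment in which SMN resides, were a fixed list of 9 rows, 7 of them tested and only Scarna10 a member. In polysomal RNA 3 were lower in SMA early (6.82% of tested genes) and 4 late (5.38%), at an unadjusted p under 0.05. Scarna13 gave -1.16 early and -0.59 late, and Scarna2 -1.29 and -0.66, both called at either stage. The third early call was Scarna8, with 24.6 and 10.6 FPKM in control and listed at 0 in both SMA polysomal libraries. Such a 0 can be a failed estimate, Scarna8 was listed at 0 in 9 of the 20 libraries, and no fold is given for it, although it alone of the list passed adjustment in this comparison (adjusted p = 0.0490 by limma). None of the scaRNA changes that were called was a member's except that of Scarna10 late. In late total RNA 1 was lower, Scarna6 (-0.54). Of the 7 tested other short noncoding RNAs, 3 were lower in late total RNA (4.70% of tested genes), namely Rnu11, Rnu12 and Vaultrc5, and 1 in late polysomal RNA (5.38%). Rnu12, the U12 RNA of the minor spliceosome, gave -1.23 in total and -0.72 in polysomal RNA of late SMA brains, both past the same unadjusted threshold.

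The change in translation efficiency, the polysomal minus the total log2 change of SMA against control, was called for 1 member early, and for 3 with a block for the replicate number (4.92% of the members, 2.77% of tested genes in that fit). Early, none was higher (1.26% of tested genes) and Gm24853 was lower (1.06%). Late, none was higher (1.09%) and none lower (0.977%) at an unadjusted p under 0.05 by limma, and no member passed after adjustment at either stage. The member medians were -0.26 early and 0.03 late, and neither sign was stable. Early it was -1.28 and 0.65 without the first or second control, and 0.32 and -0.76 without the first or second SMA mouse. Late it ran from -0.21 to 0.25 without 1 mouse. U3 with Rnu3a summed gave 0.32 early and -0.0049 late with SE of 1.27 and 0.398. Of the 7 tested scaRNAs, 2 were lower early at an unadjusted p under 0.05 by limma (1.06% of tested genes). Scarna8, listed at 0 in both early SMA polysomal libraries, was among them, and such a 0 can be a failed estimate. The early median over that list was -1.01, and none was called late.

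Messages of the snoRNA particle proteins were read from fixed lists, with log2 differences given here. Of all tested genes, 9.29% were higher and 10.2% lower in polysomal RNA early, and 19.5% and 12.5% late. Between the days 19.3% rose and 21.1% fell in total RNA, 23.4% and 23.8% in polysomal RNA. Lists of 4 genes are too short to be read against these shares. Of the box C/D core proteins, 2 of 4 were higher in polysomal RNA early (Nop58 by 0.55, Nhp2l1 by 0.21) and 2 late (Fbl by 0.34, Nop58 by 0.25), with none lower. Of the box H/ACA core proteins, 1 of 4 was higher early (Nop10 by 0.53) and 2 late (Dkc1 by 0.27, Nop10 by 0.19), with none lower. Of 13 tested assembly factors, 3 were higher early, among them Ruvbl1 by 0.48, and 4 late, with Naf1 lower (-0.42). Between the days Fbl, the methyltransferase fibrillarin, rose by 0.45 in both fractions, while Dkc1, the pseudouridine synthase dyskerin, gave -0.53 and -0.31, each past the test. Both lists were mixed. Nop56 fell by 0.36 in total and Nop58 by 0.40 in polysomal RNA, while of the H/ACA proteins Gar1 rose by 0.43 and 0.62, Nop10 by 0.50 in total RNA alone, and Nhp2 fell by 0.34 in polysomal RNA. Of the assembly factors 2 rose (Naf1 and Smn1) and 5 fell between the days in both fractions, Coil, the scaffold of the Cajal body, with -0.28 and -0.39. Between genotypes, the early polysomal libraries had Nhp2 (-0.25) and Nop10 (-0.58) lower in SMA at an unadjusted p under 0.05, where 6.82% of tested genes were lower. In late polysomal RNA Nop56 was higher (0.24, where 5.35% were), and late translation efficiency was higher for Nop56 (0.30) and lower for Nop58 (-0.29). Ruvbl1 was lower in early total RNA (-0.28) and the early translation efficiency of Znhit6 higher (0.57), with none of these past adjustment by limma. The short protein-coding genes as a whole had medians of -0.48 in early total and -0.51 in early polysomal RNA of SMA brains, and Nop10 is a short message whose part in this shift was not tested.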

How the data were processed

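Total and polysomal RNA of mouse brain were sequenced as stranded total RNA libraries with 100 bp reads. The authors aligned them to GRCm38.p4 with TopHat2 2.0.14 and Gencode M6 and computed the deposited FPKM per gene with Cufflinks 2.2.1. No counts were used, so no interval was computed from depth.

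From these FPKM values, the 15247 of 45700 genes averaging 1 FPKM or more were fitted on log2(FPKM + 0.1) with limma 3.58.1 (R 4.3.3, lmFit and eBayes with trend), so fold changes of low genes are understated. Adjusted p-values are Benjamini-Hochberg over all tested genes. Translation efficiency was the interaction of genotype and fraction. P-values within a fraction measure the spread between these mice. Fits across the fractions, translation efficiency included, took every library as independent except under the replicate block. The fit was tested on simulated data. Sequences, hosts and lengths came from Gencode M21 by gene identifier.

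Members and lists were chosen with earlier results of these data known. Named are the 5 members with the highest means, those beside the thresholds, up to 3 per comparison and direction with the largest change among called members without overlap, and members of the lists. Members named beyond these were chosen after their values were seen. Alternatives were other pseudocounts, filters, scalings, ranks, variance models, the replicate block and leaving out each mouse. Summing the rows U3 and Rnu3a was chosen after seeing the data.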

Additional observations from a re-analysis of the deposited data

Results flagged for a closer look

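The change in translation efficiency of Gm24853, a snoRNA row without a host gene on chromosome 12, was picked out because the difference between polysomal and total RNA itself differed between the genotypes by the test of the interaction at the early stage. The log2 change was -1.03 (SE 0.384, past an unadjusted p under 0.05 but with an adjusted p of 1 by limma, 2 mice per group), and 1.06% of all tested genes were lower by the same rule. Its polysomal values were 743 and 597 FPKM for control, 530 and 328 FPKM for SMA brains, and its total values 427 and 334 FPKM against 484 and 479 FPKM. No late change was called for it, and the late values went the other way. Its late polysomal minus total difference was -0.77 for control and 0.38 for SMA brains. That late change of 1.15 was the highest of the members. Groups of 2 or 3 mice could not be searched for single outlying libraries.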

How the results depend on the processing

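The member medians kept their sign between the fractions and between the days under every alternative run, and so did the Snora and Snord medians between the fractions. The member medians between genotypes (but for late polysomal RNA) and of translation efficiency changed sign when single mice were left out. In percentile ranks the early median of translation efficiency was 0.0131 points. Numbers of called members moved with the setting. Of 190 alternative numbers of called members 136 stayed within 1.5 times, and of 650 alternative values of named members 544 kept direction and call, 82 lost the call, 11 gained it and 13 changed sign. The causes were not tested. Beside the share of all tested genes called in the same fit, the members' share was higher in 2 of 16 alternatives for early total, 4 of 16 for early polysomal, 4 of 18 for late total and 9 of 18 for late polysomal RNA between genotypes, in 11 of 16 and 9 of 18 between the early and late fractions, and in 16 and 21 of 22 between the days in total and polysomal RNA. Shares of all tested genes called in the same fit stand in brackets.

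For SMA against control in early total RNA (0 called), quantile normalization called 1 (9.10%). In early polysomal RNA (3), the filter at above 0 FPKM in every library called 12 (15.1%), rescaling to equal medians 5 (13.2%), adjusted p-values 0 and leaving out a mouse 2 to 18. In late total RNA (1), the filter at above 0 FPKM called 9 (9.34%), a mean of 5 FPKM 2 (9.07%) and quantile normalization 3 (9.51%). Percentile ranks called 2 (9.88%), no variance trend 2 (10.1%), 1 model over all 20 libraries 2 (9.06%) and adjusted p-values 0. Leaving out a mouse called 1 to 8 (6.72% to 11.2%). The number was 5, 8 and 5 without each SMA mouse in the order of their numbers, and 2 without the control numbered 2 or 3. In late polysomal RNA (6), 1 model over all libraries called 2 (9.98%), adjusted p-values 0 and leaving out a mouse 5 to 7 (7.25% to 13.5%). Early translation efficiency (1) gave 0 with no filter (4.47%), quantile normalization (2.84%) and adjusted p-values, and more without any 1 mouse. Late (0), it gave 2 with the filter at above 0 FPKM (2.59%) and 1 to 2 without any 1 mouse (1.81% to 4.74%).

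For polysomal against total RNA, the early number (12) was 6 with no filter (6.47%), 7 with percentile ranks (17.7%), 24 with 1 model over all libraries (34.2%) and 0 to 8 without a mouse. The late number (20) was 9 with ranks (29.6%, against 14.8% of the members), 13 with 1 model (25.99%, against 21.3%) and 14 to 25 without a mouse (25.3% to 29.0%). Between the days, total RNA (29) gave 19 with no filter (16.9%), 17 with ranks (38.3%) and 19 to 35 without a mouse, the 19 being without the second early control, and polysomal RNA (46) gave 27 with ranks (47.0%) and 41 to 46. The Snora median ran from -1.35 to -0.73 early and from -0.66 to -0.46 late without a mouse, and the Snord median from -2.21 to -1.52 and from -1.21 to -0.81. In percentile points the Snora medians were -2.83 and -0.735 and the Snord medians -7.09 and -0.498, so the order of the classes turned late.

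Between the fractions, quantile normalization turned the sign of the most abundant members. The early difference was 0.60 for Snord22 and 0.51 for Gm22988, and the late one 1.38 for Snord22, 1.36 for Gm26447, 1.32 for Gm22988, 0.44 for Gm23262 and 0.51 for Gm22486. In percentile points Snord22 gave 0.00984 early and 0.0208 late, and the late values were 0.0317 for Gm26447 and for Gm22988, 0.0120 for Gm23262 and 0.0219 for Gm22486. These 5 stood between the 99.9th and the 100th percentile in all late libraries, so such shifts are of a few ranks and no direction is read from them.

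The same replicate numbers stand on total and polysomal libraries and on both genotypes. The labels do not say that a number marks 1 mouse. Between the fractions, deviations of same-numbered libraries from their group means had an r of 0.162 to 0.449 late and of 0.0952 (control) and 0.215 (SMA) early over genes above 0 FPKM everywhere, and of -0.0391 to 0.109 over all tested genes. All 6 late total libraries resembled the polysomal library of their own number most, and Xist was above 1 FPKM in both fractions of the same numbers (early SMA 1, late control 1 and 2, and late SMA 3) and at most 0.19 FPKM elsewhere, a hint from the data that the late numbers mark mice. With the replicate block the late fractions gave 23 called members (40.2%) in place of 20, the early fractions 7 (7.75%), and translation efficiency 3 early (2.77%) and 0 late (4.32%). Between the genotypes same-numbered libraries had an r of -0.144 to 0.103, so the numbers were not taken to pair them, and the block gave 3 for early (4.77%) and 6 for late total RNA (8.60%). The other numbers stayed within 1.5 times.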
